A study of Rattus norvegicus with 12 samples.

Results

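The genes described here are 43 genes of the cell cycle and mitosis, among 26612 gene names on a 1-colour Agilent rat array. They were the genes of a list of 45 whose symbol the array files carry, and they were read by 55 of the 30367 probes. Mki67 has no probe of that name, and Cdk1 is carried under its older symbol Cdc2, which is reported beside the members but not counted with them. RNA came from the cervix of 12 adult female Sprague Dawley rats, 3 in each of 4 groups. Non-pregnant (NP) rats were in proestrus by vaginal smear, and pregnant rats were killed on day 21 after breeding (D21), close to birth. All rats were perfused with saline and the cervix was dispersed with collagenase, so that every group is a cell suspension and not intact tissue. In 3 rats of each state the suspension was frozen as it was (whole cervix), and in another 3 macrophages (Mφs) were first bound by the ED1 antibody and drawn off on magnetic beads (Mφ-depleted cervix). No rat gave more than 1 array.

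A dividing cell passes through its phases by turning gene sets on in order. Cyclins D and E with Cdk4 and Cdk2 release E2F factors, which turn on the genes that load the replicative helicase and make nucleotides. The kinases, motors and checkpoint proteins of mitosis follow, many of them driven by Foxm1 and by factors that bind CCAAT or TTTGAA motifs. Cdkn1a (p21) holds the cyclin-dependent kinases back. In the cervix, epithelial and stromal cells are known to divide in response to ovarian steroids in the cycle and in pregnancy.

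Promoter letters known from cell cycle genes were searched in the members, and 6 windows are shown. They were picked after the search as examples that hold the letters, from genes called in at least 1 of the comparisons described below, and do not stand for all called genes. RefSeq windows of 300 bases, from 250 before to 50 after the transcript start in the GRCr8 build, were held for 32 of the 43 members, 1 window a gene. The letters CCAAT and TTTGAA, searched on both strands, stood together in 11 of the 20 windows of mitotic entry and spindle genes (55%), in 0 of the 8 windows of replication genes, and in 7.25% of 27457 windows of all genes. CCAAT was present in 80% of the mitotic windows, 75% of the replication windows, 71.9% of the members' windows together and 37.7% of all windows, and TTTGAA in 60%, 12.5%, 40.6% and 18.1%. At least 1 of the E2F letters TTTGGCGC, TTTCCCGC, TTTCGCGC and TTTGCCGC stood in 6 of the 8 replication windows, in 0 of the 20 mitotic windows and in 2.25% of all windows. Below, capitals mark any of these letters on either strand, and the runs are read 5′ to 3′ on the strand of the gene. The first 3 are replication genes, Mcm5 and Mcm7 of the helicase (chr19:13488563-13488862, plus strand, and chr12:22163129-22163428, minus strand) and Tyms (chr9:120776034-120776333, minus strand). The last 3 are mitotic genes, Plk1 (chr1:186147408-186147707, plus strand), Cdc20 (chr5:137255750-137256049, minus strand) and Kif23 (chr8:71320535-71320834, minus strand).
Mcm5: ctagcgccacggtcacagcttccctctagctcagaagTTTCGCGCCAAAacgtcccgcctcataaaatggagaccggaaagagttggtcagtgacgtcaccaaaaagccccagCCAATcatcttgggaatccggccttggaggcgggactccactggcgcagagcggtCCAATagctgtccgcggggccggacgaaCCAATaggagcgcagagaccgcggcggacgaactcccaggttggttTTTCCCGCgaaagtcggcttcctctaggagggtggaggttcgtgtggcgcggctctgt
Mcm7: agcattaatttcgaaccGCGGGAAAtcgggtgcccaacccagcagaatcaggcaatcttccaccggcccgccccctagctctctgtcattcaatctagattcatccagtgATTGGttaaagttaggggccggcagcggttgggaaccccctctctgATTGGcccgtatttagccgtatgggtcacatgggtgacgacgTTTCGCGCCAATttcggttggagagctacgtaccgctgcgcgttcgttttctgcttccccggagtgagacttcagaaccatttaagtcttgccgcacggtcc
Tyms: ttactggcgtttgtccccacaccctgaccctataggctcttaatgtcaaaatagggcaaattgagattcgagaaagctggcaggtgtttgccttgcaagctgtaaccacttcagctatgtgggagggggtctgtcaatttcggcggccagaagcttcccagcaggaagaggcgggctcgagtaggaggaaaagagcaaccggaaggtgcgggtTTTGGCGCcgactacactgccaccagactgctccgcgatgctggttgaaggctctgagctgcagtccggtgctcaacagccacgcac
Plk1: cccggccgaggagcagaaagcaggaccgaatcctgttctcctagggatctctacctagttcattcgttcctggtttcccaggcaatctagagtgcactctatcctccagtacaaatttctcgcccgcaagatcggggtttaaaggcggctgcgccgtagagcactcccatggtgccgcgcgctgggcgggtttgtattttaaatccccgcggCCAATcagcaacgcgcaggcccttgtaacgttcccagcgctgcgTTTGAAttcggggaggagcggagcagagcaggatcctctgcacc
Cdc20: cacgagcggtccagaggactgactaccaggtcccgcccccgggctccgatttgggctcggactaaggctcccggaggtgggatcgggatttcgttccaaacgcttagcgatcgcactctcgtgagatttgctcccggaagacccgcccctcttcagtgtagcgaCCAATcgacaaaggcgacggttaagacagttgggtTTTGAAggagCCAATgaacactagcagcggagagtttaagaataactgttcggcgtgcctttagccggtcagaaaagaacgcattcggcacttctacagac
Kif23: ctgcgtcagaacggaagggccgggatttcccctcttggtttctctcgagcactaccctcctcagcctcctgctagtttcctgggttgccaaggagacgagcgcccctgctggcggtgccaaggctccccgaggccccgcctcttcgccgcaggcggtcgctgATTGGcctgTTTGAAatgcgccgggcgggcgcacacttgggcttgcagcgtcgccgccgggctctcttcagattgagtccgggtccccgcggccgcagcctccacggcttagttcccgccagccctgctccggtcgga
In Mcm5 the forms TTTCGCGC and, on the other strand, TTTGGCGC overlap in 1 capital run, and in Mcm7 TTTCGCGC overlaps a CCAAT. A match of letters is a description of the window and was not tested as a binding site. Of the 7 mitotic members called in any comparison that had a window, 3 held both CCAAT and TTTGAA, and those are the 3 shown. Of the other 4, Kif11, Cdc25b and Cdca3 held CCAAT without TTTGAA and Aurka held neither. Of the 5 called replication members with a window, 4 held an E2F form and Rrm1 held none. The windows of Ccne1 and Cdkn1a hold none of these letters.

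Levels are log2 intensities relative to the 75th percentile of each array, so that 0 is that percentile. By the flag of the scanner, 44.9% to 61.7% of probes exceeded the background clearly, array by array. Of the 43 members, 35 passed this flag on every one of the 12 arrays. Cdkn3, a phosphatase of Cdk1 and Cdk2, passed it on 2 arrays, and Cdca8, of the passenger complex, and Kif2c, which takes microtubules apart, passed it on 5 each. None of these 3 passed it on all 3 arrays of any group, so they could not be tested. Their levels ran from -7.17 to -4.90, from -4.92 to -2.52 and from -5.01 to -1.94. In all, 4 slides were used, and their scans fell on 3 days. The Mφ list (15 genes) had a mean level between 1.15 and 1.96 in the whole cervix arrays and between -3.64 and -2.66 in the depleted arrays, where Adgre1, Mrc1, Cx3cr1 and Mpeg1 were not well above background on any array. The epithelial list (10 genes) was well above background in every group. Smooth muscle (10 genes) and fibroblast (10 genes) lists moved with depletion as well, and their ranges stand beside the results. In RNA of mixed cells, fewer cells of a type and less RNA per cell cannot be told apart.

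In both mitotic roles the depleted NP rats had the highest mean levels and whole NP rat 9 lay apart from its group. Over the 12 spindle and checkpoint members well above background on every array, the mean level in whole NP cervix was -0.22 in rat 8, -1.92 in rat 9 and -0.25 in rat 10. In whole D21 cervix it was -0.93, -1.70 and -1.82 in rats 5, 6 and 7. Whole NP rat 9 thus lay below the 3 D21 rats, while the other 2 NP rats lay above them. In Mφ-depleted cervix the same mean was 0.98, 0.85 and 0.14 in NP rats 5, 6 and 7 and -0.82, -0.76 and -0.63 in D21 rats 1, 2 and 4, with every NP rat above every D21 rat.

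The 6 mitotic entry members had means of 0.13, -1.48 and 0.10 in whole NP rats 8, 9 and 10 and of -0.66, -1.26 and -1.39 in whole D21 rats 5, 6 and 7. For the 10 replication members the NP means were 0.84, -0.14 and 0.40 and the D21 means 0.14, -0.44 and -0.31, and for the 6 members of G1 control they ran from 0.43 to 0.98 in NP and from 0.18 to 0.64 in D21 rats. Among depleted D21 rats the SD was 0.85 for the G1 control mean, 0.27 for replication and 0.10 for each mitotic role. Rat 9 was the lowest of the 3 whole NP rats in 39 of the 43 members, against 40.9% of the 12608 genes well above background on those arrays. Its Mφ list mean was also the lowest of the whole arrays at 1.15, and its smooth muscle mean of 4.47 compared with 4.94 and 4.87 in NP rats 8 and 10, while the fibroblast mean was 3.97 against 4.11 and 4.01. The epithelial mean of rat 9 was 3.00, between 2.80 and 3.11 in rats 8 and 10. An endothelial list (10 genes) had a mean of -0.22 in rat 9, between -0.40 and 0.30 in rats 8 and 10. The part of these cells in the low level of the mitotic genes was not tested.

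Within the other groups single rats also led or trailed. Whole D21 rat 5 was the highest of its group in 37 of the 43 members (35.3% of 13741 genes), and depleted NP rat 7 the lowest in 31 (35.3% of 11901 genes). The array of depleted NP rat 7 was the dimmest of the 12, with a 75th percentile of 290 intensity units and 44.9% of probes well above background, and its part in this was not tested.

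**Figure D1:**
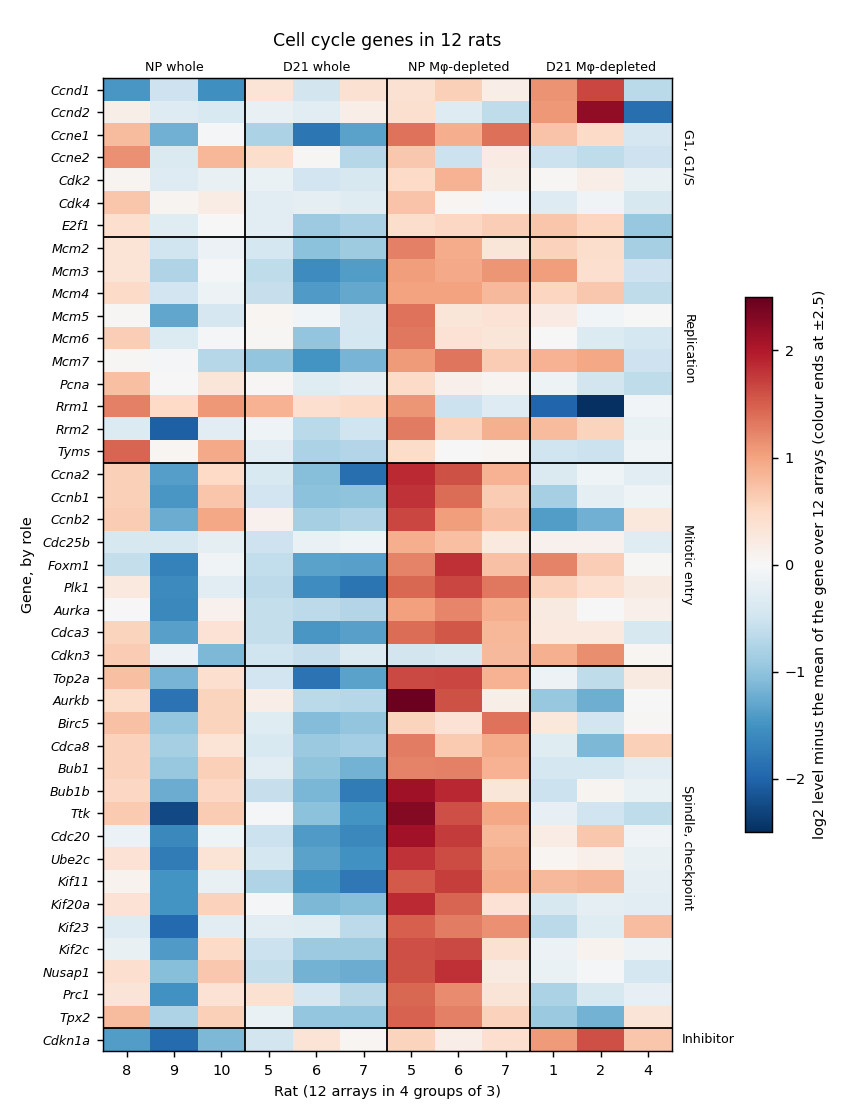
Each row is a member and each column a rat, and colour gives the log2 level on that array minus the mean of the gene over the 12 arrays. Whole NP rat 9 is blue across the mitotic genes, the whole D21 rats are mostly blue and the 3 depleted NP rats mostly red, and the rows of Cdkn3, Cdca8 and Kif2c rest on signals that were mostly not well above background.

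**Figure D2:**
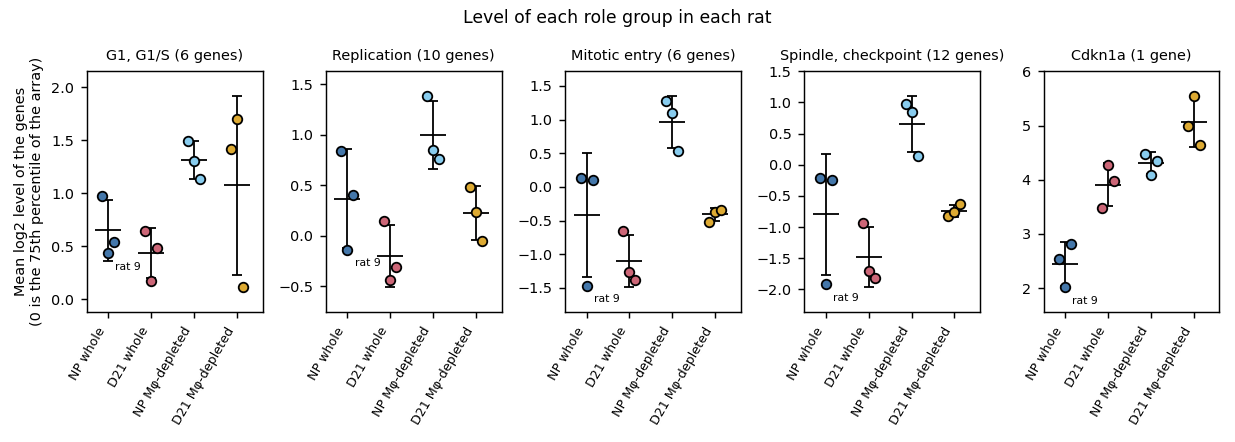
Points are single rats, placed at the mean log2 level of those members of a role that passed the background flag on every array, and the bars give the mean and SD of 3 rats. In both mitotic panels the depleted NP rats are highest and whole NP rat 9 lies apart from the other 2 whole NP rats, and in the Cdkn1a panel the whole NP rats are the lowest group.

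D21 against NP whole cervix asks what late pregnancy changes in the intact cell mix. With all 12 rats, Cdkn1a rose and Tyms fell, and no other member passed the test. Among the 39 members tested 1 was called higher, where 3.92% of the 14056 genes tested were, and 1 lower, where 1.9% were. The differences of the members had a median of -0.62 on the log2 scale, with 31 of 39 below 0, beside a median of -0.08 over all genes tested. The epithelial list moved as well, from a range of 2.80 to 3.11 in NP to 4.19 to 4.57 in D21 whole cervix, and smooth muscle from 4.47 to 4.94 to between 3.72 and 4.17, and their part in the result was not tested. Calls are limma tests with a Benjamini-Hochberg adjusted p below 0.05 over all genes.

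Cdkn1a, the p21 inhibitor of cyclin-dependent kinases, stood at 2.53, 2.02 and 2.81 in whole NP rats 8, 9 and 10 and at 3.48, 4.27 and 3.97 in whole D21 rats 5, 6 and 7. The groups did not overlap, and the log2 difference was 1.46 (SE 0.31, n = 3 rats a group, limma adjusted p = 0.0243), a 2.74-fold rise. A second probe of Cdkn1a, at 1.95, 1.62 and 1.89 in NP and 2.02, 2.68 and 2.39 in D21 rats, also kept the groups apart, with a smaller difference of 0.54. The immediate-early list (12 genes on the array), which handling of tissue can induce, had means of -1.40 to -1.23 in NP and -0.92 to -0.82 in D21 whole cervix, and its part in this was not tested. The brighter probe lies at chr20:7386596-7386655 in rn4. The call was lost without NP rat 8, NP rat 9 (log2 difference 1.24, limma adjusted p = 0.0552), D21 rat 6 or D21 rat 7, and with slide as a block. The blocked difference of 1.10 sets the D21 rats against NP rat 10 alone.

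Tyms, which makes thymidylate for DNA synthesis, was at -1.17, -2.56 and -1.67 in whole NP rats 8, 9 and 10 and at -2.91, -3.40 and -3.35 in whole D21 rats 5, 6 and 7. Every D21 rat was below every NP rat. The log2 difference was -1.42 (SE 0.34, limma adjusted p = 0.0344), 2.68-fold lower in D21, and -1.80 without rat 9. The call was lost without NP rat 8, NP rat 10 or any 1 of the 3 D21 rats, and with slide as a block. Its probe lies at chr9:112605733-112605792 in rn4.

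Of the 7 members of G1 control none passed. Ccnd1, the cyclin D that growth signals induce, went the other way from most, with levels of 0.88, 1.81 and 0.80 in whole NP and 2.67, 1.88 and 2.71 in whole D21 rats. These did not overlap, but the difference of 1.26 (SE 0.53) had a limma adjusted p of 0.186. Ccne1, the cyclin E that drives entry into S phase, was at -1.09, -3.06 and -1.92 in NP and -2.66, -3.67 and -3.22 in D21 rats, with NP rat 9 inside the D21 range. Cdk4, the partner of the D cyclins, was between 3.72 and 4.37 in NP and between 3.36 and 3.42 in D21 rats, a difference of -0.59 (SE 0.26). Ccnd2 differed by 0.09 with an SE of 0.78, and Ccne2, Cdk2 and the transcription factor E2f1 by -0.62, -0.20 and -0.70.

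Among the 10 replication members, the helicase subunits Mcm3, Mcm4 and Mcm7 had differences of -1.04, -1.05 and -0.97, none of them called. For Mcm4 the NP levels of 1.52, 0.58 and 0.91 all lay above the D21 levels of 0.47, -0.37 and -0.23, and Mcm7 also kept the groups apart. Mcm2 and Mcm6 differed by -0.69 and -0.54. Mcm5, of the same ring, differed by 0.42 (SE 0.37), and by 0.05 (SE 0.35) without rat 9, so its sign is uncertain. Pcna, the sliding clamp of the polymerases, differed by -0.53, and the ribonucleotide reductase subunits Rrm1 and Rrm2 by -0.35 and 0.45. Without rat 9 the Rrm2 difference was -0.12.

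None of the mitotic members was called with all rats, and in most of them rat 9 set the spread. Ube2c, the ubiquitin-conjugating enzyme of the anaphase-promoting complex, was at 0.99, -1.11 and 0.98 in whole NP rats 8, 9 and 10 and at 0.20, -0.71 and -0.89 in whole D21 rats. Ttk, the checkpoint kinase Mps1, was at -0.73, -3.64 and -0.73 in the NP rats and at -1.43, -2.39 and -2.87 in the D21 rats. In both genes 2 NP rats lay above all D21 rats and rat 9 below them all.

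Top2a, the topoisomerase that untangles chromosomes, shared this only in part. Its levels were -0.18, -2.09 and -0.51 in NP and -1.40, -2.78 and -2.26 in D21 rats, with rat 9 inside the D21 range. Ccnb1, the cyclin of mitotic entry, was at 1.12, -0.92 and 1.24 in NP and 0.05, -0.49 and -0.47 in D21 rats, with rat 9 below the D21 rats. Bub1, a kinase of the spindle checkpoint, was at -0.35, -1.86 and -0.33 in NP and -1.21, -1.92 and -2.10 in D21 rats, and rat 9 fell among the D21 values. Kif23, a motor of the midzone at cytokinesis, was at 0.62, -0.997 and 0.69 in NP and 0.69, 0.65 and 0.30 in D21 rats. Its difference was 0.44 (SE 0.46) with all rats and -0.11 (SE 0.38) without rat 9, so its sign rested on that rat. Cdc25b, the phosphatase that starts mitotic entry, did not follow rat 9, with NP levels of -0.52, -0.53 and -0.37 and D21 levels of -0.64, -0.30 and -0.22.

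The other mitotic members had small or uncertain differences. In mitotic entry, the cyclins Ccna2 and Ccnb2, the kinases Plk1 and Aurka, and Cdca3 differed by -1.01, -0.62, -0.81, -0.16 and -0.99 with SEs between 0.38 and 0.59. Foxm1 was not tested here, being well above background on 1 of 3 NP and 2 of 3 D21 arrays. Bub1b and Nusap1, of the checkpoint and the spindle, differed by -1.09 (SE 0.57) and -1.01 (SE 0.49). Prc1, which bundles the midzone microtubules, and Aurkb lay near 0 at 0.03 (SE 0.50) and -0.13 (SE 0.70). Without rat 9 their differences were -0.59 (SE 0.40) and -0.92 (SE 0.61), and that of Aurka was -0.71. Aurkb was well above background on 2 of 3 NP arrays. The other 5 spindle members (Birc5, Cdc20, Kif11, Kif20a and Tpx2) lay between -0.90 and -0.56 with all rats.

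Without whole NP rat 9 the count moved to 10 members lower and 0 higher in D21, where 2.08% and 4.39% of all genes tested were called lower and higher. The called members were Tyms, Ccne1, Ccna2, Ccnb1, Plk1, Cdca3, Top2a, Birc5, Bub1 and Ube2c. Their log2 differences then ran from -1.80 for Tyms and Top2a to -1.33 for Plk1, with limma adjusted p-values from 0.00678 for Tyms to 0.0496 for Plk1. The median over the 39 members was -1.08 without rat 9, -0.40 without NP rat 8 and -0.55 without NP rat 10. The labels and methods give no reason to set rat 9 aside, and it stands out by low levels of these same genes. The count with all rats is therefore the result, and the 10 lower calls show only how far it depends on rat 9.

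The count also moved when other libraries were left out. Without depleted D21 rat 4, which enters through the shared spread, 3 members were lower (Tyms, Mcm4 and Mcm7) and 2 higher (Cdkn1a and Ccnd1). Over all 14056 genes that fit called 575 lower and 915 higher. Without whole NP rat 8, whole D21 rat 6 or whole D21 rat 7, 0 members were called in either direction. These fits called 41, 62 and 31 of all genes lower and 124, 174 and 68 higher. On slide 4, which held NP rat 10 and the 3 D21 rats, 35 of 39 members well above background were lower in D21 and the median difference was -0.96. With slide as a block the difference rests on these same arrays, with NP rat 10 as the only NP rat. Its median of -0.96 is therefore not a second estimate.

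**Figure D3:**
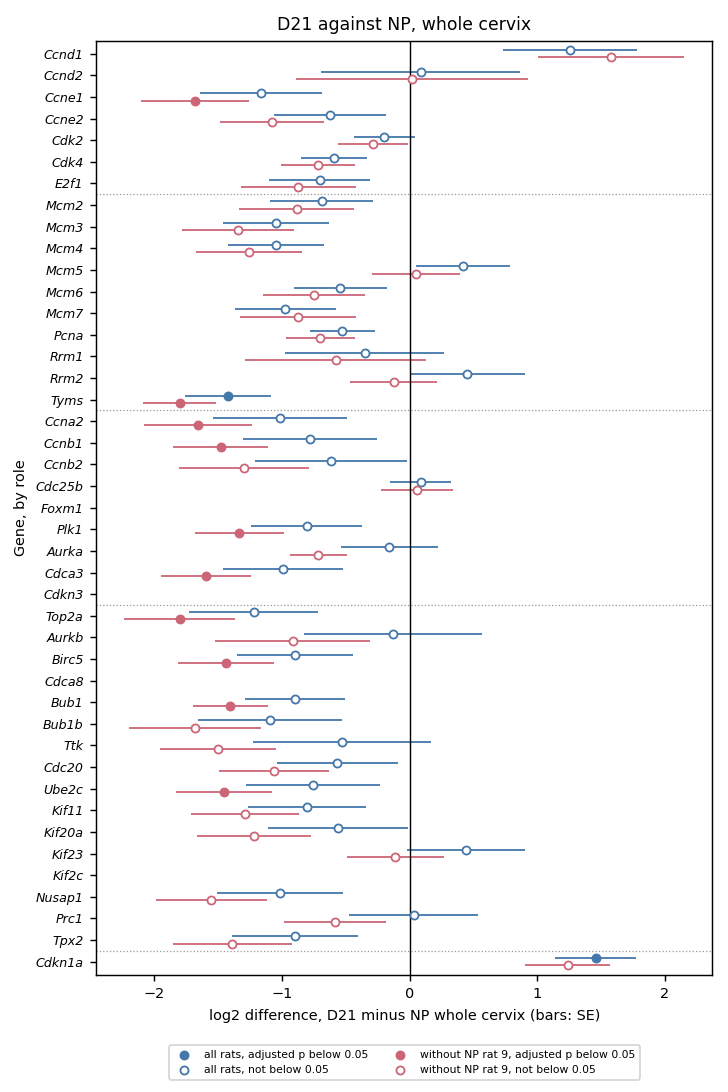
Points are log2 differences, D21 minus NP whole cervix, with their SE, for all rats (blue) and without NP rat 9 (red), and filled points have a limma adjusted p below 0.05. Leaving out rat 9 shifts nearly every mitotic gene to the left and fills 10 points, where Tyms and Cdkn1a are filled with all rats. Cdkn1a and Ccnd1 stand farthest on the other side of 0, where 8 members lie with all rats and 5 without rat 9. Foxm1, Cdkn3, Cdca8 and Kif2c were not tested.

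D21 against NP cervix after Mφ depletion sets the same states side by side in the cells that the beads left, in other rats. No member passed the limma test at an adjusted p below 0.05. An unadjusted p below 0.05 was found for 23 of the 39 members tested, beside 2904 of the 13406 genes tested. The methods' t-test, at their p of 0.01 and fold of 2, called 2 lower (Bub1 and Plk1), where 44 of the 13406 genes were. After adjustment it called 0 members and 0 of all genes. By the limma test, 3.62% of the 13406 genes were called higher and 0.97% lower. The median difference of the members was -0.94, with 36 of 39 below 0, beside 0.02 over all genes tested, and the 14 spindle and checkpoint members tested had a median of -1.48. The fibroblast list stood between -0.93 and 0.31 in NP and between 2.27 and 3.06 in D21 depleted cervix. The smooth muscle list stood between 0.04 and 0.64 in NP and between 1.06 and 2.06 in D21. The epithelial list stood between 4.24 and 4.59 in NP and between 4.84 and 4.99 in D21. The part of these cells in the result was not tested.

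Bub1 came nearest to the threshold, at 0.32, 0.34 and -0.05 in NP rats 5, 6 and 7 and at -1.36, -1.37 and -1.19 in D21 rats 1, 2 and 4. The D21 rats were close to each other and lay below every NP rat, and the difference was -1.51 (SE 0.39, limma adjusted p = 0.0542). Tpx2, which builds the spindle around chromosomes, differed by -1.70 (SE 0.49, limma adjusted p = 0.0789), with levels of -0.36, -0.57 and -1.24 in NP and -2.76, -3.01 and -1.50 in D21 rats. The groups of Tpx2 did not overlap, but D21 rat 4 lay much nearer to the NP rats than the other D21 rats.

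The mitotic cyclins were also lower in value without being called. Ccna2 stood at 1.74, 1.47 and 0.74 in NP and -0.49, -0.23 and -0.42 in D21 rats, a difference of -1.70 (SE 0.52, limma adjusted p = 0.0989). Ccnb2 differed by -1.93 (SE 0.59) and Ccnb1 by -1.68 (SE 0.52). Aurkb, the kinase of the chromosomal passenger complex, had the most negative difference of the members, -2.12 (SE 0.70, limma adjusted p = 0.116), with 1 of its 3 NP arrays not well above background. Cdc2, the Cdk1 partner of these cyclins, was at 3.05, 2.95 and 2.15 in NP and 1.15, 1.57 and 0.90 in D21 rats, a difference of -1.51 (limma adjusted p = 0.0914).

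Every other tested mitotic member also had a difference below 0. The remaining spindle and checkpoint members ran from -2.07 for Ttk (SE 0.69) to -0.82 for Birc5 (SE 0.45), and in 12 of the 14 the unadjusted p was below 0.05. In mitotic entry Cdca3, Plk1, Aurka, Cdc25b and Foxm1 had differences of -1.22, -1.07, -0.94, -0.67 and -0.64. The helicase subunits Mcm2 to Mcm7 differed by -0.93 to -0.57, Pcna by -0.64 and Tyms by -0.54. Tyms thus had the same sign as in whole cervix, where it was called.

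In Ccnd2, Rrm1 and E2f1 the depleted D21 rats were unlike each other, with SDs of 2.12, 1.41 and 0.91, while Mcm5, Mcm6, Tyms and Pcna had SDs between 0.14 and 0.26. Ccnd2 was at 3.51 and 4.65 in D21 rats 1 and 2 but at 0.54 in rat 4, against 2.83, 2.12 and 1.80 in the NP rats. Rrm1, the large subunit of ribonucleotide reductase, was at -2.77, -3.62 and -0.86 in D21 rats 1, 2 and 4 and at 0.31, -1.33 and -1.12 in the NP rats, with rat 4 inside the NP range. E2f1 was at -0.57, -0.71 and -2.20 in D21 rats 1, 2 and 4, and the NP rats lay between -0.82 and -0.64. In all 3 genes D21 rat 4 lay more than 1 log2 unit from D21 rats 1 and 2. Rats 1 and 2 were on slides 2 and 1, and rat 4 was on slide 3, so that rat and slide cannot be told apart here.

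Cdkn1a was again higher in value in D21, at 4.99, 5.55 and 4.64 against 4.48, 4.09 and 4.35, with no overlap. The difference was 0.75 (SE 0.31, limma adjusted p = 0.195). Its second probe differed by 1.06, with D21 rat 4 at 2.40, inside the NP range of 2.00 to 2.91. The immediate-early list ran from 0.67 to 1.03 in NP and from 1.51 to 1.87 in D21 depleted cervix, and its part in this was not tested. Within slide 1 (D21 rat 2 against NP rats 5 and 6) 37 of 41 members well above background were lower in D21, with a median of -1.12. Within slide 3 (D21 rat 4 against NP rat 7) 36 of 38 were, with a median of -0.77. The count of calls depended on single rats: 11 lower without whole NP rat 9, 7 lower and 1 higher without depleted D21 rat 4, and 3 lower without depleted NP rat 7. Over all 13406 genes these fits called 177, 1530 and 228 lower, against 130 with all rats. Higher calls over all genes were 1543 without depleted D21 rat 4, against 485 with all rats. At the study's threshold with limma 6 members were lower, where 276 of all genes were.

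Whole against Mφ-depleted cervix in NP rats asks which transcripts the suspension lost or gained with the Mφs. The members called here were all lower in whole cervix, with Cdc20, Kif23, Plk1 and Cdkn1a among them, and 22 of those tested were not called. Of 39 members tested 17 were called lower in whole NP cervix and 0 higher, where 15.8% and 17% of the 13409 genes tested were called. The median difference was -1.25, with 33 of 39 below 0, beside -0.04 over all genes, and 6 were above 0. At an unadjusted p below 0.05 there were 28 members, all with a difference below 0, beside 5855 of the 13409 genes tested. The methods' t-test called 1 member lower and 0 higher, where 574 and 854 of all genes were. The suspensions also differed in their other cells, since the smooth muscle list ran from 4.47 to 4.94 in whole and from 0.04 to 0.64 in depleted NP cervix. The fibroblast list ran from 3.97 to 4.11 against -0.93 to 0.31, and the epithelial list from 2.80 to 3.11 against 4.24 to 4.59. Their part in the result was not tested, and the extra antibody and bead steps cannot be told apart from the removal of Mφs.

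In the mitotic entry role 6 of 8 tested members were lower. Plk1, the polo kinase of mitosis, was at -0.62, -2.45 and -1.11 in whole NP rats 8, 9 and 10 and at 0.59, 0.82 and 0.47 in depleted NP rats 5, 6 and 7. All whole rats lay below all depleted rats, and the difference was -2.02 (SE 0.43, limma adjusted p = 0.00446), a 4.06-fold lower level in whole cervix. Foxm1, the transcription factor of late cell cycle genes, was well above background on 1 of 3 whole arrays, with levels of -3.48, -4.57 and -2.96 against -1.63, -1.05 and -2.14. Its difference was -2.06 (SE 0.46, limma adjusted p = 0.0054).

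Aurka, the kinase of the spindle poles, was well above background on 2 of 3 whole arrays and differed by -1.56 (SE 0.38, limma adjusted p = 0.00897). Ccna2, Cdca3, a trigger of mitotic entry, and Cdc25b were lower by -1.54, -1.40 and -0.99 on the log2 scale. Ccnb1 (-1.34, limma adjusted p = 0.0701) and Ccnb2 (-1.03, limma adjusted p = 0.208) were not called.

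Of the 13 spindle and checkpoint members tested 4 were lower and the rest had negative differences that were not called. Cdc20, the activator of the anaphase-promoting complex, was at 0.29, -1.17 and 0.34 in whole and 2.54, 2.19 and 1.28 in depleted NP rats, a difference of -2.18 (SE 0.47, limma adjusted p = 0.00465). Kif23 was at 0.62, -0.997 and 0.69 against 2.45, 2.23 and 2.10, a difference of -2.16 (SE 0.46, limma adjusted p = 0.00449). Neither gene had overlapping groups. Kif11, the motor that pushes the spindle poles apart, and Ube2c were lower by -1.93 (SE 0.46) and -1.79 (SE 0.52). Among those not called, Ttk had a difference of -1.95 (limma adjusted p = 0.0505), Top2a of -1.40 (0.0538) and Birc5, the survivin of the passenger complex, of -0.64 (0.299).

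The replication role was divided. Mcm3, Mcm5, Mcm7 and Rrm2 were lower, by -1.19, -1.23, -1.26 and -1.80 on the log2 scale. Rrm2, the small subunit of ribonucleotide reductase, was at 1.49, -0.20 and 1.56 in whole and 3.13, 2.41 and 2.71 in depleted NP rats. Its partner Rrm1, at 0.47, -0.30 and 0.28 against 0.31, -1.33 and -1.12, had a difference of 0.86 (SE 0.62, limma adjusted p = 0.312) in the other direction. Tyms and Pcna also had values above 0, at 0.66 and 0.13. In G1 control Ccnd1 (-1.55, limma adjusted p = 0.0428) and Ccne1 (-1.36, limma adjusted p = 0.047) were lower, while Cdk4 differed by 0.07 (SE 0.26) and Ccnd2 by 0.00 (SE 0.78).

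Cdkn1a had the smallest adjusted p of the members. It was at 2.53, 2.02 and 2.81 in whole and 4.48, 4.09 and 4.35 in depleted NP rats, a difference of -1.86 (SE 0.31, limma adjusted p = 0.00102), or 3.62-fold. The second probe of Cdkn1a gave a smaller difference, -0.68. Of the member cyclins and kinases that p21 is known to hold back, Ccnd1, Ccne1 and Ccna2 were lower here too. Cdk2 (-0.65, limma adjusted p = 0.0568), Cdk4, Ccnd2, Ccne2 (0.43), Ccnb1 and Ccnb2 were not called. Kinase activity was not measured, and a link to Cdkn1a was not tested. Beside Cdkn1a the immediate-early list ran from -1.40 to -1.23 in whole and from 0.67 to 1.03 in depleted NP cervix, and its part in this was not tested.

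With slide or with scan day as a block 4 members remained called in each case. Foxm1, Cdkn1a and Kif23 were called under both, Aurka with slide and Plk1 with scan day. Within slide 3 (whole rats 8 and 9 against depleted rat 7) 30 of 35 members were lower in whole cervix, with a median of -0.98, and within scan day 3, which adds whole rat 10, 30 of 35 were, with a median of -0.79. The count of lower members was 9 without depleted NP rat 5, 10 without depleted NP rat 6, and 12 without whole NP rat 9. Over all 13409 genes these fits called 1660, 1666 and 1882 lower. The median of the members without whole NP rat 9 was -0.80, and Tyms was then called higher.

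Whole against Mφ-depleted cervix in D21 rats gave fewer calls. Of 40 members tested 9 were lower and 1 higher in whole cervix, where 10.5% and 11.9% of the 14256 genes tested were. The median difference was -0.67, with 34 of 40 below 0, beside -0.06 over all genes. The smooth muscle list ran from 3.72 to 4.17 in whole and from 1.06 to 2.06 in depleted D21 cervix, the fibroblast list from 3.72 to 4.13 against 2.27 to 3.06, and the epithelial list from 4.19 to 4.57 against 4.84 to 4.99. Their part in the result was not tested.

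The 9 lower members were Ccne1, Mcm3, Mcm4, Mcm7, Foxm1, Plk1, Cdc20, Kif11 and Cdkn1a. Kif11 was at -1.98, -2.72 and -3.02 in whole and -0.42, -0.40 and -1.49 in depleted D21 rats, a difference of -1.81 (SE 0.46, limma adjusted p = 0.0216). Mcm7 was at 1.09, 0.58 and 0.92 against 2.95, 3.05 and 1.56, a difference of -1.66 (SE 0.39, limma adjusted p = 0.0161). In both genes the groups did not overlap and depleted rat 4 was the nearest to the whole rats. Plk1 and Foxm1 differed by -1.76 and -1.73, Ccne1, Mcm3 and Cdc20 by -1.56, -1.51 and -1.45, and Mcm4 and Cdkn1a by -1.28 and -1.15. The immediate-early list ran from -0.92 to -0.82 in whole and from 1.51 to 1.87 in depleted D21 cervix, and its part in the result for Cdkn1a was not tested.

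Rrm1 was the single member called higher in whole cervix, at 0.08, -0.37 and -0.32 against -2.77, -3.62 and -0.86 in depleted rats 1, 2 and 4. The difference of 2.21 (SE 0.62, limma adjusted p = 0.0296) was a 4.64-fold higher level, and within scan day 3, against rat 4 alone, it was 0.66. Most spindle members were not called here. Kif23 differed by -0.34 (SE 0.46), Tpx2 by -0.10 (SE 0.49), Ttk by -0.41 (SE 0.70) and Aurkb by 0.31 (SE 0.70).

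No slide held both D21 groups. Within scan day 3, the whole rats 5, 6 and 7 against depleted rat 4, 30 of 38 members were lower in whole cervix, with a median of -0.57. With slide or scan day as a block no member was called, at medians of -1.21 and -0.38. Of all genes, 9 were called lower with slide and 335 with scan day, and 45 and 545 higher. Without depleted D21 rat 1, depleted D21 rat 2 or whole D21 rat 7 the count was 0 in both directions. It was 1 lower without whole D21 rat 6 (Cdkn1a) and 6 lower without whole D21 rat 5, and neither of these fits called Rrm1. Lower calls over all 14256 genes, in the order the fits are named, were 464, 517, 449, 492 and 572.

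**Figure D4:**
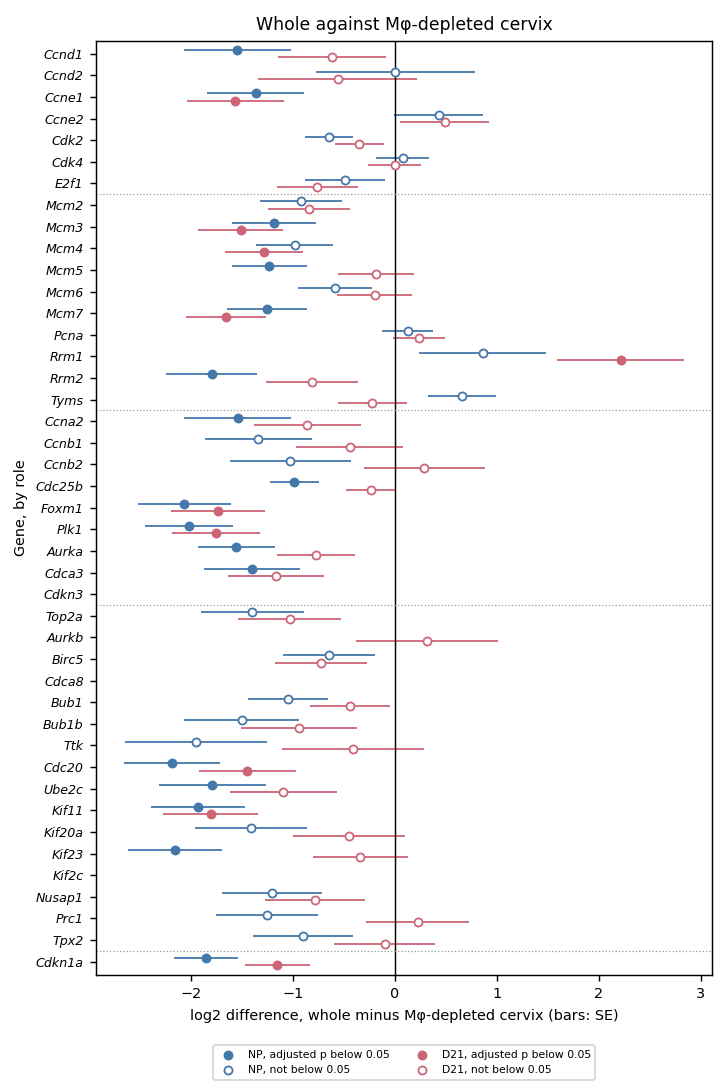
Points are log2 differences, whole minus Mφ-depleted cervix, with their SE, in NP rats (blue) and D21 rats (red), and filled points have a limma adjusted p below 0.05. Most points lie left of 0 in both states, with 17 filled in NP and 10 in D21, and Rrm1 in D21 stands alone on the right among the filled points.

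Whether depletion went with a different change in D21 than in NP rats was tested as an interaction. Of 40 members tested 0 were called in the limma fit, where 2.39% of 14565 genes were. An unadjusted p below 0.05 was found for 2734 of those genes and for 1 member. That member was Kif23, with an interaction of 1.82 (SE 0.66, limma adjusted p = 0.17), the difference being -0.34 in D21 and -2.16 in NP rats. The median over the members was 0.49, and -0.05 over all genes. It moved to 0.02 without whole NP rat 9 and to 0.03 with slide as a block. Without depleted D21 rat 4, Kif23 and Rrm1 were called above 0 and Ccnd2 below 0, where 1299 and 1322 of all genes were. The larger number of calls in NP than in D21 rats is therefore not shown to be a difference between the states.

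Other genes of the cycle, from lists of 23 replication genes, 40 mitosis genes, 20 G1 and checkpoint regulators and 16 cell cycle brakes, were set beside the members. The array carries 23, 38, 16 and 15 of them. Of 14 brakes tested 2 were called in whole cervix with pregnancy, both higher in D21, where 3.92% of all genes were, and the list had a median of -0.10 with 6 above and 8 below 0. Among the rest, 0 of the 18 replication, 29 mitosis and 11 G1 genes tested were called. An unadjusted p below 0.05 was found for 7, 6 and 3 of them, beside 3177 of the 14056 genes tested. Gadd45a, a stress-induced gene, differed by 1.74 (SE 0.34, limma adjusted p = 0.0179) and Btg2, an antiproliferative gene, by 1.56 (SE 0.31, limma adjusted p = 0.0193). Both lay on the same side as Cdkn1a. The mitosis genes had a median of -0.64 and 26 of 29 below 0.

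In Mφ-depleted cervix 2 of 32 mitosis genes and 3 of 12 G1 and checkpoint genes tested were lower in D21, while 0 of 20 replication genes and 0 of 14 brakes were called (10 and 2 at an unadjusted p below 0.05). Of all 13406 genes tested there, 0.97% were called lower, and 2904 had an unadjusted p below 0.05. E2f8, a repressor of the E2F family, had the largest of these changes at -2.54 (SE 0.43, limma adjusted p = 0.00616). Ncapd2, a condensin subunit, and Tacc3, a spindle protein, fell by 1.63 and 1.55 on the log2 scale. All 32 mitosis genes had a difference below 0, with a median of -1.27.

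Between whole and depleted NP cervix 19 of 31 mitosis genes, 7 of 21 replication genes, 6 of 13 G1 and checkpoint genes and 4 of 14 brakes were lower in whole cervix, where 15.8% of all genes were. Mybl2, an activator of mitotic genes, and Cdt1, a licensing factor, each well above background on 1 of 3 whole arrays, differed by -3.30 and -2.79, and Gadd45b, a stress-induced brake, by -2.58. Higher in whole cervix were Ccnd3 (1.61, limma adjusted p = 0.00306), the third of the D cyclins, and the brakes Cdkn2c (1.32) and Ccng1 (0.92). In D21 rats 4 of 31 mitosis genes, 1 of 17 replication genes, 3 of 14 G1 and checkpoint genes and 2 of 14 brakes were lower in whole cervix, where 10.5% of all genes were, with Gadd45b at -3.34 and Pold1, a polymerase subunit, at -2.00. Pkmyt1, a kinase that restrains Cdk1, passed the background flag on 0 of 3 whole D21 arrays, and its level in depleted cervix was higher by at least 4.10-fold (limma adjusted p = 0.0202). The CDK inhibitor Cdkn2c (1.17) and Lin9 (1.14), of a complex that drives mitotic genes, were higher in whole D21 cervix.

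For 12 of the members a second probe was read. In 6 of them (Mcm2, Rrm2, Ccna2, Cdc25b, Prc1 and Cdkn1a) both probes were well above background on all arrays. Both probes then gave differences of the same sign in 6 of 6 for D21 against NP in whole and in depleted cervix and for whole against depleted NP cervix, but in only 3 of 6 for whole against depleted D21 cervix. There Mcm2 gave -0.84 and 0.13, Rrm2 -0.82 and 0.47, and Cdc25b -0.24 and 0.82. Foxm1, whose call in that comparison rests on the brighter probe (-1.73), had -0.25 on the other. The rn4 positions place each probe but the files give no exon for it, so what part of the transcript each probe reads is not given in the sources used here.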

How the data were processed

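RNA of 12 rats was read on 12 arrays, 1 a rat. The authors deposited the Agilent Feature Extraction intensity of each spot, with background already subtracted and no normalization between arrays, and a table of ratio values, each intensity over the 75th percentile of its array. The deposited intensity was used. The ratio table, whose scale was found by setting it against the intensities, served as an alternative. Spots marked as outliers (294 to 648 an array) and controls were left out, spots of a probe were averaged, and the brightest probe stood for a gene. Probe names were updated through RefSeq accessions where a match existed (57.1% of probes).

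Tests took in the genes that, in 1 or both groups compared, exceeded background on each of the 3 arrays by the scanner's flag. The test was limma 3.58.1 in R 4.3.3 with a mean for each of the 4 groups over the 12 arrays. All members were described, and of the other lists at most 3 called genes in each direction. The members and all lists were chosen with earlier results of these data known. On simulated data with 3-rat groups for D21 against NP whole cervix (13981 genes), changes of 1, 2, 3 and 4 log2 units were planted in 50 genes each. Of those changed by 1 unit 14% were called, and of those changed by 2 units 70%. In the data 551 genes were called higher and 267 lower there. The adjusted p depends on how many genes change, so these shares need not hold for the data. Exact permutation of 3 against 3 rats cannot go below a p of 0.1. The number of arrays limits precision. Rat and group were taken from the labels. Alternatives were the study's threshold, Welch's test as the methods name it, normexp, quantile normalization, no filter, all probes averaged, a block for slide or for day of scanning, ratio values from the authors and leaving out each rat, and within-slide values were added after seeing the data. Python 3.11.15, pandas 2.3.3 and matplotlib 3.10.9 were used for summaries and plots.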

Additional observations from a re-analysis of the deposited data

How the results depend on the processing

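No paired analysis was possible because the numbers name single rats, and the only groups that share them (depleted NP and whole D21) are not compared. The median difference of the members stayed below 0 in all 4 comparisons under every alternative that kept all rats. Counts of calls were less stable.

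In D21 against NP whole cervix, 0 members were higher and 0 lower with the methods' t-test, with or without adjustment, normexp, no filter or slide as a block, and 0 were higher with all probes averaged. Over all genes the t-test called 289 higher and 205 lower, and 0 after adjustment. Normexp called 78 and 11, no filter 129 and 42, and all probes averaged 581 and 264. Leaving out 1 rat gave 0 to 2 members higher and 0 to 10 lower, where 68 to 915 and 31 to 575 of all genes were. In depleted D21 against NP cervix, 6 members were lower at the study's threshold, 2 with the methods' t-test and 1 with all probes averaged. Of all genes, 276, 44 and 121 were. There, leaving out 1 rat gave 0 to 11 lower and 0 to 1 higher, where 32 to 1530 and 242 to 1543 of all genes were.

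In whole against depleted D21 cervix, 0 members were higher and 0 lower with the methods' t-test, with or without adjustment, normexp, no filter, slide or scan day as a block. Over all genes the t-test called 255 lower and 394 higher, and 4 and 8 after adjustment. Normexp called 96 and 212, no filter 527 and 732, slide as a block 9 and 45, and scan day as a block 335 and 545. Leaving out 1 rat gave 0 to 13 members lower and 0 to 1 higher, where 449 to 2977 and 650 to 2944 of all genes were. In NP rats, 11 were lower at the study's threshold, 9 with no filter and 7 with normexp, where 1443, 1306 and 900 of all genes were. With slide or scan day as a block 4 were lower, where 998 and 1413 of all genes were. The methods' t-test called 1 lower and 0 after its adjustment, where 574 and 312 of all genes were. Leaving out 1 rat gave 9 to 22 lower and 0 to 1 higher, where 1475 to 2702 and 1730 to 2691 of all genes were. The interaction gave 0 to 3 calls when 1 rat was left out. No call turned its direction. With no filter more genes enter the adjustment, and with the blocks fewer arrays inform each difference. The cause of the other losses was not tested. Dim members (Foxm1 in whole cervix, Cdkn3, Cdca8, Kif2c) are limited by signal over background.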
